A study of Mus musculus with 8 samples.

Results

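The genes described here are the 10 genes of the urea cycle and of glutamine turnover that were listed for the mouse liver, namely Cps1, Otc, Ass1, Asl, Arg1, Nags, Slc25a13, Slc25a15, Gls2 and Glul. Their probes were taken by gene symbol alone, as every probe of the array whose annotated symbol is on the list. No cut on a measured value entered this step, but the genes were listed with earlier results of these data known. Of the 10 genes, 9 have a probe, and all 9 passed the filter on dim probes. They stand among 16593 genes with a probe and 7882 genes tested. Gls2, the liver-type glutaminase that releases ammonia from glutamine, has no probe under this symbol and was not analysed here.

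In the liver, ammonia from amino acid breakdown is cleared by 2 systems that sit in different places along the blood stream. Hepatocytes near the portal vein carry the urea cycle, which binds ammonia into carbamoyl phosphate and passes it through ornithine, citrulline, argininosuccinate and arginine to urea. The last rows of hepatocytes around the central vein carry glutamine synthetase, the product of Glul, which takes up the ammonia that escaped the urea cycle. This division is a textbook example of liver zonation, in which Wnt signals from the central vein favour the pericentral genes.

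The study asked how the liver transcriptome of TgC6hp55 mice differs from that of wild type (WT) mice. TgC6hp55 mice carry, besides their own Tnfr1, a human TNFR1 coding sequence under the CollagenVI promoter, which is active in mesenchymal cells, followed by a human growth hormone (hGH) minigene meant to stabilise the transgene. The WT controls carry neither. All animals were male, untreated, on the C57BL/6J strain and 21 weeks old, and each group held 4 livers from 4 animals. As a model the line has limits that its makers describe. The hGH minigene is itself expressed in several tissues, and the insertion in the first founder disrupts Icoslg and Dnmt3l. In the liver the makers detected neither the mRNA of the human receptor nor that of hGH, but they found hGH protein in the serum. Most of the study was done on the line of the first founder, and neither the labels nor the array methods name the founder of these livers.

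Total liver RNA was hybridised to Illumina Mouse Ref-8 v2.0 BeadChips, on which the brightness of the beads reports the level of an mRNA, with 1 array for each liver. Mean intensity before normalization was 167 to 179 on the WT arrays, and 151, 168, 224 and 112 on the arrays of TgC6hp55 replicates 1 to 4, so that replicate 3 was the brightest and replicate 4 the dimmest of all 8. Between 10541 and 12011 of 25697 probes were detected per array (detection p under 0.05). Precision is limited by the number of arrays. Levels are given as log2 signal after background correction and quantile normalization, with an offset of 16 that draws the values of dim probes together. Changes are log2 fold changes of TgC6hp55 over WT from limma, and a gene was called where its p, adjusted by Benjamini-Hochberg for all 8540 features, was under 0.05. Of 8 hepatocyte marker genes 7 were tested and none was called (Fgb was detected on no array), and their summed signal was 61200 to 65600 in WT and 62300 to 68600 in TgC6hp55 livers. The Alb probe was dim, with a mean log2 signal of 5.37 in WT and 5.74 in TgC6hp55 livers, and adds little to these sums. Defining adipocyte genes (Adipoq, Plin1, Lep, Retn) were detected on no array. In whole liver, fewer cells of a type and less RNA per cell cannot be told apart.

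None of the 9 measured genes passed the test, and for all 9 the values of WT and TgC6hp55 livers overlapped. Across the whole array 11% of the features were called, 6.48% higher and 4.51% lower in TgC6hp55 livers, and 16.8% had groups that did not overlap. At an unadjusted p under 0.05 stood 2 of the 9 genes, Cps1 and Slc25a13, both with lower signal in TgC6hp55 livers, against 24.4% of all features. Among the 8 genes of the urea cycle, 5 had a negative fold change and 3 (Otc, Asl and Arg1) a positive one, but with median scaling Asl and Arg1 also lay below WT, at -0.11 and -0.05. The median of the 8 was -0.18, beside -0.008 over all features. With median scaling it was -0.31, beside -0.059 over all features.

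**Figure D1:**
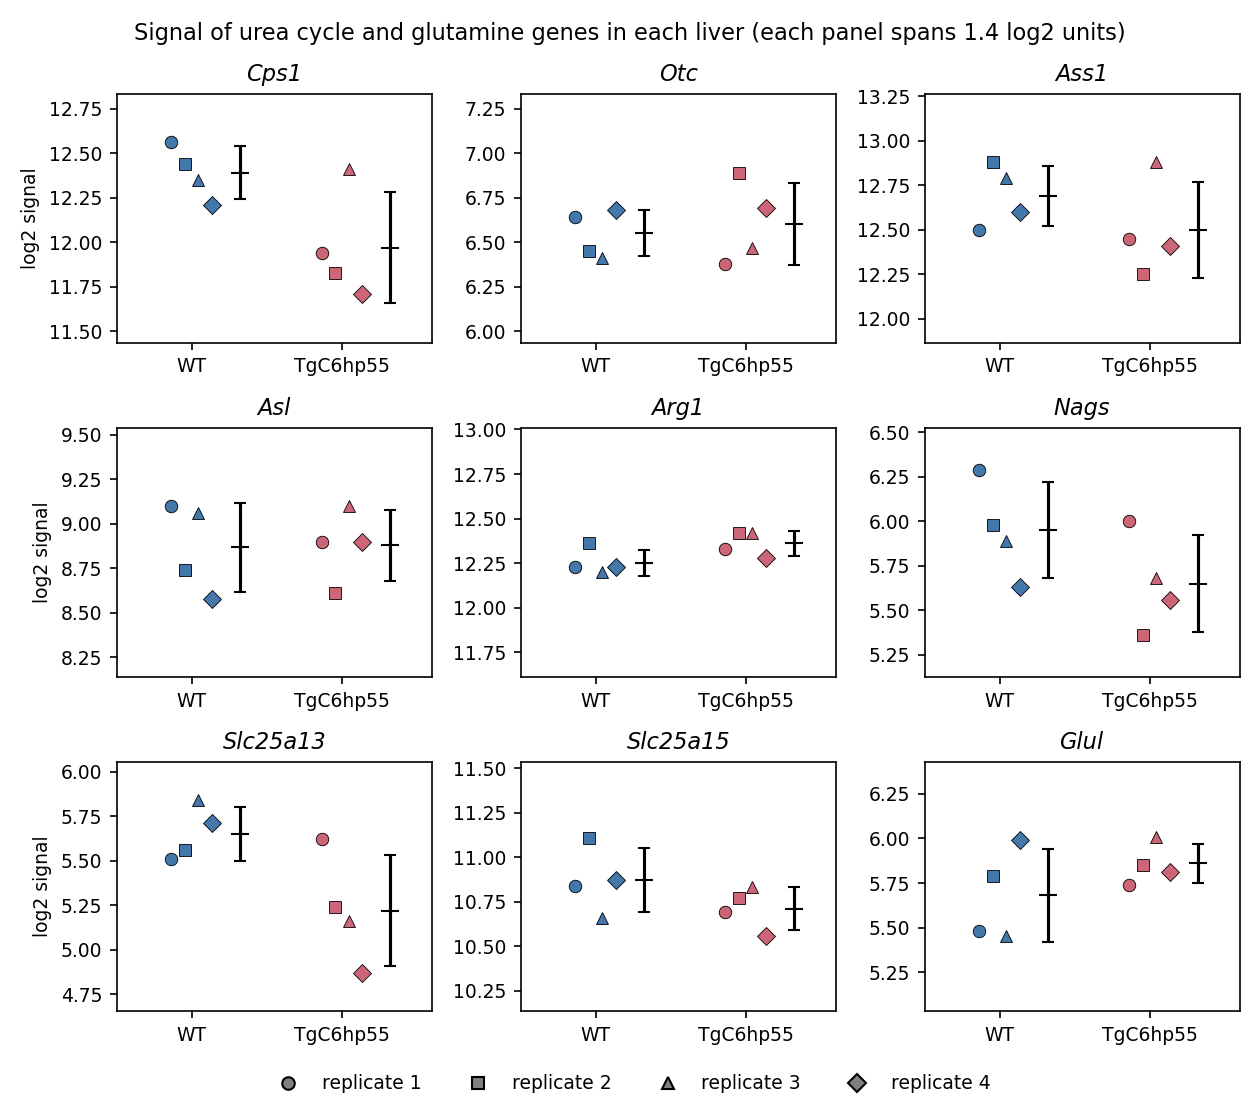
Normalized log2 signal of the 9 measured genes in each liver, with WT in blue, TgC6hp55 in red, the symbol giving the replicate and the bars the mean ± SD of 4 livers. In every panel the groups overlap, and for Cps1 only TgC6hp55 replicate 3, at 12.41, reaches the WT range of 12.21 to 12.56.

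Carbamoyl phosphate synthetase (Cps1) carries out the entry step of the cycle in the mitochondria and sets its pace. Its log2 signal in WT livers was 12.56, 12.44, 12.35 and 12.21 for replicates 1 to 4 (probe ILMN_1252849). In TgC6hp55 livers it was 11.94, 11.83, 12.41 and 11.71. Thus 3 of the 4 TgC6hp55 livers lay below every WT liver, and replicate 3 lay within the WT range. The means were 12.39 ± 0.15 (SD, n = 4) in WT and 11.97 ± 0.31 (SD, n = 4) in TgC6hp55 livers, a log2 fold change of -0.42 (standard error 0.15, 95% confidence interval -0.74 to -0.096, limma adjusted p = 0.0994). On the linear scale this is 1.34-fold lower, with an interval of 1.07-fold to 1.68-fold.

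A second Cps1 probe (ILMN_2913078) gave a like picture. Its log2 signal was 11.97, 12.04, 11.81 and 11.78 in WT livers and 11.55, 11.26, 11.79 and 11.47 in TgC6hp55 livers, and again only TgC6hp55 replicate 3 overlapped with WT. Its log2 fold change was -0.38 (standard error 0.13, adjusted p = 0.0791 in a fit of all probes). Without TgC6hp55 replicate 3, the only liver of its group within the WT range, the main probe passed with -0.57 (limma adjusted p = 0.0123, in a range of 0.0123 to 0.41 over all alternatives). Leaving out that liver moves the group mean away from WT, so this pass is no separate support. Without replicates 3 and 4 together the main probe passed with -0.51 (limma adjusted p = 0.0475), an alternative chosen after seeing the data.

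Nags makes N-acetylglutamate, the activator that carbamoyl phosphate synthetase needs. Its log2 signal was 6.29, 5.98, 5.89 and 5.63 in WT livers and 6.00, 5.36, 5.68 and 5.56 in TgC6hp55 livers. TgC6hp55 replicates 1 and 3 lay within the WT range, and replicates 2 and 4 below it. The log2 fold change was -0.30 (standard error 0.16, 95% confidence interval -0.65 to 0.056, adjusted p = 0.292), with lower signal on average in TgC6hp55 livers but an interval that includes 0.

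Slc25a13 encodes citrin, the mitochondrial carrier that exports the aspartate used in argininosuccinate synthesis. Its log2 signal (probe ILMN_2590896) was 5.51, 5.56, 5.84 and 5.71 in WT livers and 5.62, 5.24, 5.16 and 4.87 in TgC6hp55 livers. Here TgC6hp55 replicate 1 lay within the WT range and the other three livers lay below it, so that the overlapping liver was not the one of Cps1. The means were 5.65 ± 0.15 (SD, n = 4) and 5.22 ± 0.31 (SD, n = 4), a log2 fold change of -0.43 (standard error 0.15, 95% confidence interval -0.76 to -0.10, limma adjusted p = 0.0957). Without TgC6hp55 replicate 1 the gene passed with -0.57 (limma adjusted p = 0.025, in a range of 0.025 to 0.497). Leaving out this overlapping liver moves the group mean away from WT, so the pass is no separate support. Without replicates 3 and 4 together the change was -0.22 (limma adjusted p = 0.443), and with an offset of 1, which leaves dim probes more spread, it was -0.69 (limma adjusted p = 0.135). The probe is dim, with intensities before normalization of 29 to 43 in WT and 9 to 30 in TgC6hp55 livers. A second probe (ILMN_1236546) was detected on 1 array of each group only.

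The carrier Slc25a15, which exchanges ornithine and citrulline across the inner mitochondrial membrane, had a log2 signal of 10.84, 11.11, 10.66 and 10.87 in WT livers and 10.69, 10.77, 10.83 and 10.56 in TgC6hp55 livers. All TgC6hp55 livers but replicate 4 lay within the WT range. The log2 fold change was -0.16 (standard error 0.11, adjusted p = 0.437), -0.079 without WT replicate 2, and a second probe (ILMN_3163476) gave -0.15 (standard error 0.17, adjusted p = 0.651 in the fit of all probes).

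**Figure D2:**
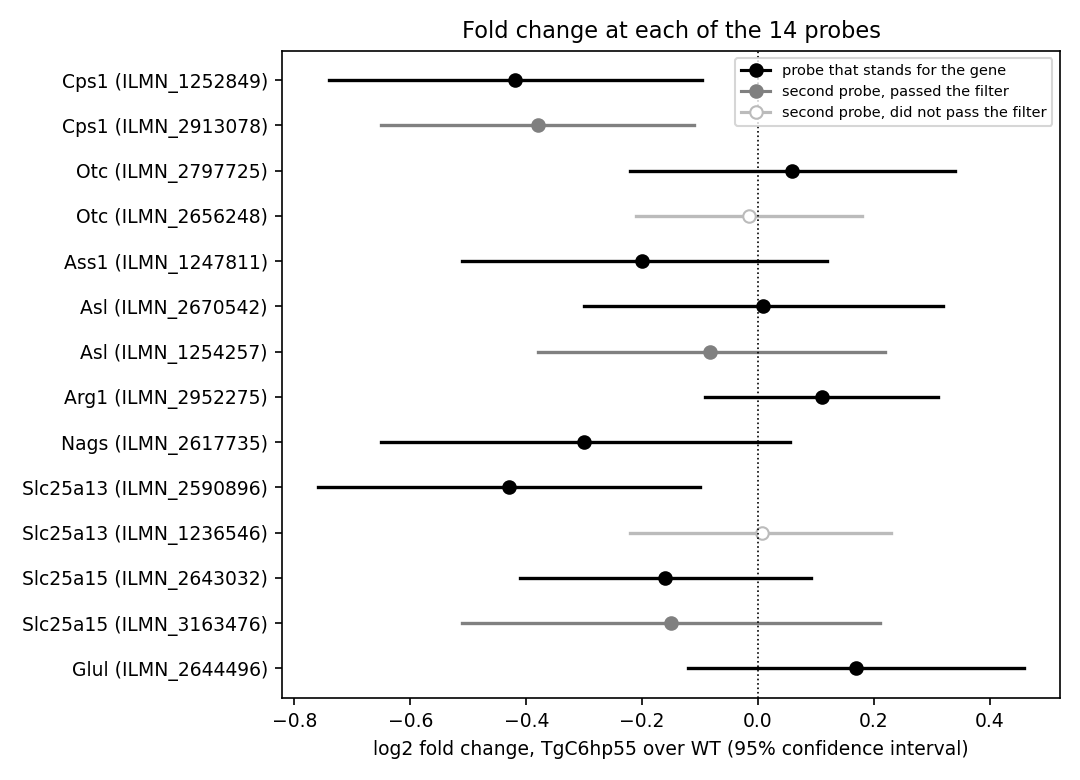
Log2 fold change of TgC6hp55 over WT with its 95% confidence interval for all 14 probes of the 9 genes, in black for the probe that stands for the gene, in grey for a second probe, and as an open symbol where a second probe did not pass the filter. Both Cps1 probes (-0.42 and -0.38) and the main Slc25a13 probe (-0.43) have intervals below 0, and all other intervals include 0.

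Otc, the mitochondrial enzyme that joins carbamoyl phosphate to ornithine, had a log2 signal of 6.64, 6.45, 6.41 and 6.68 in WT livers and 6.38, 6.89, 6.47 and 6.69 in TgC6hp55 livers. The lowest and the highest of all 8 livers were both TgC6hp55, and the log2 fold change was 0.058 (95% confidence interval -0.22 to 0.34, adjusted p = 0.831). Without TgC6hp55 replicate 2 it was -0.037. The main probe is rather dim, with intensities before normalization of 72 to 85 in WT and 52 to 107 in TgC6hp55 livers. A second Otc probe (ILMN_2656248) was detected on 1 WT array only.

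Ass1 makes argininosuccinate from citrulline and aspartate in the cytosol. Its log2 signal was 12.50, 12.88, 12.79 and 12.60 in WT livers and 12.45, 12.25, 12.88 and 12.41 in TgC6hp55 livers. As for Cps1, TgC6hp55 replicate 3 was in the WT range and the other three livers lay below it. The log2 fold change was -0.20 (standard error 0.14, 95% confidence interval -0.51 to 0.12, adjusted p = 0.442).

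Asl splits argininosuccinate into arginine and fumarate. Its log2 signal was 9.10, 8.74, 9.06 and 8.58 in WT livers and 8.90, 8.61, 9.10 and 8.90 in TgC6hp55 livers, and the 2 groups covered the same range. The log2 fold change was 0.008 (95% confidence interval -0.30 to 0.32, adjusted p = 0.98), its second probe gave -0.083 (95% confidence interval -0.38 to 0.22), and the sign of the main probe turned with median scaling (-0.11) and when single livers were left out (-0.088 to 0.097).

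Arg1, the arginase that releases urea and returns ornithine to the cycle, was the most even of the 9 genes. Its log2 signal was 12.23, 12.36, 12.20 and 12.23 in WT livers and 12.33, 12.42, 12.42 and 12.28 in TgC6hp55 livers. TgC6hp55 replicates 2 and 3 lay just above the WT range and the other two within it. The log2 fold change was 0.11 (standard error 0.091, 95% confidence interval -0.091 to 0.31, adjusted p = 0.512), and with median scaling it was -0.05. Only 3.19% of all features had a smaller standard error.

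Glul, the pericentral glutamine synthetase, had a log2 signal of 5.48, 5.79, 5.45 and 5.99 in WT livers and 5.74, 5.85, 6.01 and 5.81 in TgC6hp55 livers (probe ILMN_2644496). The 4 TgC6hp55 livers lay close together, replicate 3 just above the WT range and the others in its upper part. The means were 5.68 ± 0.26 (SD, n = 4) and 5.86 ± 0.11 (SD, n = 4), a log2 fold change of 0.17 (standard error 0.13, 95% confidence interval -0.12 to 0.46, limma adjusted p = 0.464), and it was positive under all 20 alternatives run, between 0.097 and 0.28. Intensities before normalization were only 24 to 72, so that this probe too is dim.

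Setting each urea cycle gene against Glul within the same liver compares the periportal with the pericentral arm of ammonia clearance. A scale factor common to an array cancels in the ratio, but quantile normalization does not act as a single factor. With median scaling in its place the difference in log2 ratio was -0.71 for Cps1, -0.52 for Ass1 and -0.20 for Arg1. All 8 log2 ratios were lower on average in TgC6hp55 than in WT livers, from -0.61 for Slc25a13 and -0.59 for Cps1 to -0.065 for Arg1. Since the 8 ratios share the Glul values of each liver, they are not independent of each other, and the 0.17 by which Glul itself was higher enters every one of them. None reached the threshold in an exact two-sided permutation test over the 70 splits of the livers, in which the smallest p possible is 0.0286, and no ratio separated the groups. A single ratio at that p would still miss the threshold after adjustment over the 8 ratios, so the lack of calls says little.

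Relative to the WT mean, the Cps1 to Glul log2 ratio was 0.36, -0.064, 0.19 and -0.49 in WT livers and -0.51, -0.73, -0.32 and -0.82 in TgC6hp55 livers. All 4 TgC6hp55 livers lay below the WT mean, and WT replicate 4 lay among them. The difference was -0.59 (pooled SD 0.31, n = 4 per group, exact permutation p = 0.0571, Benjamini-Hochberg adjusted p = 0.171 over the 8 ratios), which is 1.51-fold lower. For Slc25a13 the WT values were 0.054, -0.21, 0.41 and -0.25 and the TgC6hp55 values -0.093, -0.58, -0.83 and -0.92. Again all 4 TgC6hp55 livers lay below the WT mean, replicate 1 by little (exact permutation p = 0.0857, adjusted p = 0.171). For Slc25a15 and Ass1 the differences were -0.33 and -0.37, each with an exact permutation p of 0.0857 and an adjusted p of 0.171. For Nags, Asl, Otc and Arg1 they were -0.47, -0.17, -0.12 and -0.065, with exact permutation adjusted p-values of 0.32 to 0.714. Single livers moved these by over 1.5 times, with Nags at -0.29 without WT replicate 1, Asl at -0.024 without WT replicate 1, Otc at -0.018 without TgC6hp55 replicate 3 and Arg1 at -0.0073 without WT replicate 3.

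**Figure D3:**
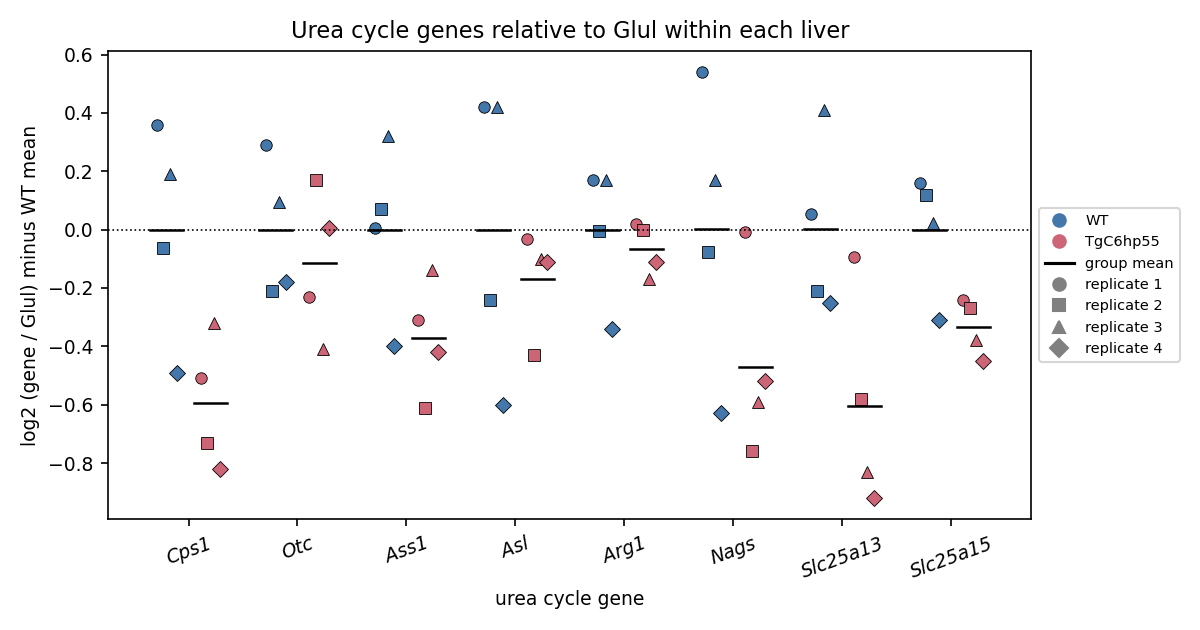
Log2 ratio of each urea cycle gene to Glul in the same liver, minus the WT mean, with WT in blue, TgC6hp55 in red, the symbol giving the replicate and the line the group mean of 4 livers. The TgC6hp55 mean is below 0 for all 8 genes, from -0.61 for Slc25a13 to -0.065 for Arg1, and the groups overlap for each.

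Seen by liver, the median deviation of the 8 urea cycle genes from their WT means was between -0.057 and 0.043 in the 4 WT livers. In TgC6hp55 replicates 1 to 4 it was -0.10, -0.33, -0.015 and -0.30, so that replicates 2 and 4 were the low ones. Replicate 3, the brightest array, had the highest value of its group for 4 of the 8 genes and the lowest for none. Replicate 4, the dimmest array, had the lowest value of its group for 4 genes and the highest for none.

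The genes whose signal followed that of Cps1 most closely over the 8 livers, after the mean of each group was taken out, were Drg1, Ganc, Slc8a1, Dpp4 and Fbxo3, with Pearson r of 0.979 to 0.985. For Glul they were Cbr3, Pamr1, Ilf2, Acox2 and Ackr2, with r of 0.950 to 0.980. These are the highest values among 8540 features over only 8 arrays and are given as a description. None of these 10 genes was called, with fold changes between -0.23 (Drg1) and 0.25 (Pamr1).

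Promoter sequences of RefSeq (build GRCm38.p6) were at hand for 6 of the 10 genes, with 7 start sites. The 250 bases before each start were searched on both strands for 6 motifs of factors that are known to act on liver genes, and the windows of Nags and Slc25a13, the only ones with a match, are shown beside that of Glul, with matched letters in capitals. All run 5′ to 3′ towards the start, and lie at chr11:102145263-102145512 (plus strand) for Nags, chr6:6217174-6217423 (minus strand) for Slc25a13 and chr1:153899679-153899928 (plus strand) for Glul.
Nags: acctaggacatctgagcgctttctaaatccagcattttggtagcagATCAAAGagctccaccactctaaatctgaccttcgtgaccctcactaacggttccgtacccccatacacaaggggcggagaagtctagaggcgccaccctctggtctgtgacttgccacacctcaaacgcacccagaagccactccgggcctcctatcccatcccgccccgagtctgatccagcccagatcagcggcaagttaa
Slc25a13: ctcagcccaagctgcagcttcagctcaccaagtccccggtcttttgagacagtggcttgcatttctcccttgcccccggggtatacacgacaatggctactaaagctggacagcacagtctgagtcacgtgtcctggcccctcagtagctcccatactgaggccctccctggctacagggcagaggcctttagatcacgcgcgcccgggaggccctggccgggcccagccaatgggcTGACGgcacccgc
Glul: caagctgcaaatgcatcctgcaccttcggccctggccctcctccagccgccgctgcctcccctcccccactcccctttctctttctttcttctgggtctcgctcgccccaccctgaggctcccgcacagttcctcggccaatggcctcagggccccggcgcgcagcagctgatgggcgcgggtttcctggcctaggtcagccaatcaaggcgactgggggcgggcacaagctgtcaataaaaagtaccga

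In the Nags window the capitals mark a TCF/LEF motif (CTTTGAT or CTTTGTT), read on the opposite strand, at 204 to 198 bases before the start, and 8.06% of all 32851 promoter windows of this length hold such a motif. In the Slc25a13 window they mark the core of a CRE motif (TGACG) at 13 to 9 bases before the start, which 17.8% of all windows hold. No match to STAT5 (TTCNNNGAA, in 7.02% of all windows), C/EBP (TTGCNNAA, 9.56%), HNF4A (CAAAGTC, 3.84%, whose opposite strand shares 5 letters with the TCF/LEF motif) or the glucocorticoid receptor motif (TGTTCT, 16.1%) lay in the 7 windows. A match describes letters and not a bound site. No binding was measured here.

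Genes around the cycle were taken from 6 lists by function, of which 92 genes were tested. Periportal hepatocyte genes held 15 of them (members of the urea cycle not included), of which 4 were higher and 2 lower in TgC6hp55 livers, 40% against the 11% of all features, with a median log2 fold change of 0.17. Mfsd2a, a transporter of lysophospholipids, was 5.59 to 6.69 in WT and 7.94 to 8.99 in TgC6hp55 livers on the log2 signal scale, a rise of 2.11 (standard error 0.26, adjusted p = 0.000234). Ctsc, the protease cathepsin C, rose by 1.57 (adjusted p = 3.2e-06) and Aldh1b1, a mitochondrial aldehyde dehydrogenase, by 1.10 (adjusted p = 0.00143). Cyp2f2, a cytochrome P450 used as a periportal landmark, was 12.62 to 12.78 in WT and 11.56 to 11.98 in TgC6hp55 livers and fell by 0.89 (adjusted p = 0.000236). Periportal genes thus moved both ways, and these 4 passed in all 20 alternatives. The other 2, Hsd17b6 (0.84) and Igf1 (-0.46), fall outside the rule for named genes and are given because the count holds them. Hsd17b6 was lost with no filter on dim probes (adjusted p = 0.0646) and with the methods' unpaired test of each gene (adjusted p = 0.105, limma range from 0.00072). The Igf1 call was lost in 11 of 20 alternatives, among them the absence of any one of WT replicates 1, 2 and 3 or TgC6hp55 replicates 2 and 3 (-0.45 to -0.40).

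Of 20 pericentral hepatocyte genes tested, 2 were higher and 1 lower (15%, near the 11% of all features, median 0.0042). Nr1i3, the nuclear receptor CAR, was 7.82 to 8.29 in WT and 8.88 to 9.55 in TgC6hp55 livers and rose by 1.12 (standard error 0.15, adjusted p = 0.000508). Rhbg, a membrane carrier of ammonia found in the same pericentral cells as glutamine synthetase, was 5.62, 5.82, 5.45 and 5.66 in WT and 6.13, 6.64, 6.36 and 6.01 in TgC6hp55 livers. It rose by 0.65 (standard error 0.14, adjusted p = 0.012), which did not hold with median scaling (0.62, adjusted p = 0.262, in a range of 0.00687 to 0.262). Cyp27a1, a sterol hydroxylase of bile acid synthesis, fell by 0.72 (limma adjusted p = 0.00371, and 0.0515 with median scaling, in a range of 0.000322 to 0.0515), and was not called by SAM.

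**Figure D4:**
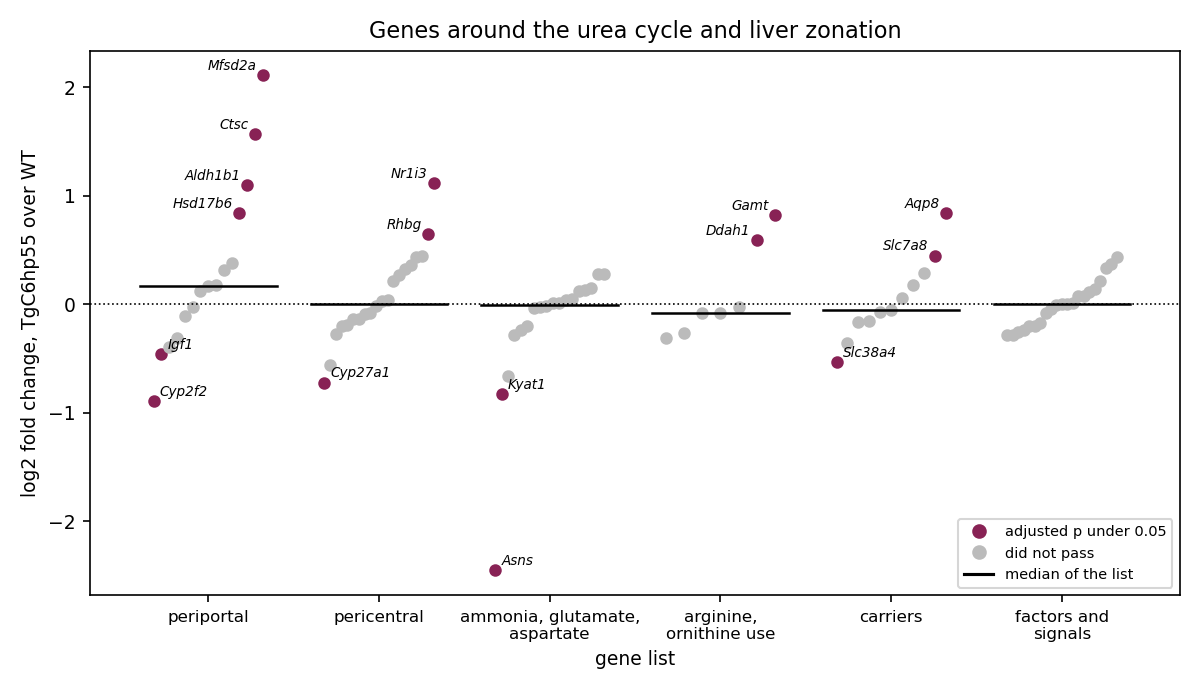
Log2 fold change of TgC6hp55 over WT for each tested gene of 6 lists around the urea cycle and liver zonation, ordered by size within a list, with called genes in purple and named, the others in grey, and the list's median as a line. Called genes lie on both sides of 0 among periportal genes, from 2.11 for Mfsd2a to -0.89 for Cyp2f2, and no gene of the last list was called.

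Of 18 genes of ammonia, glutamate and aspartate metabolism, 2 were lower and none higher (11.1%, as for the 11% of all features, median -0.0043). Asns, which makes asparagine from aspartate and glutamine, had a log2 signal of 6.92, 7.31, 5.65 and 6.82 in WT livers and was detected in no TgC6hp55 liver (4.17 to 4.27), while its other 2 probes did not pass the filter. It was at least 4.29-fold lower, counted against the lowest detected signal of each TgC6hp55 array. The Asns probe passed the filter through the WT livers alone, so its limma adjusted p of 0.000111 is given as a description only. In a fit with no filter the other 2 probes gave -0.032 (ILMN_2636755, limma unadjusted p = 0.485) and -0.88 (ILMN_3006123, limma unadjusted p = 0.00491). Kyat1, a glutamine transaminase, fell by 0.83 (standard error 0.19, adjusted p = 0.015, 0.0599 with no filter on dim probes, in a range of 0.00105 to 0.0993). Glud1, Got1, Got2, Gpt and Gpt2, which pass nitrogen between glutamate, aspartate and alanine, were not called, with adjusted p-values of 0.614 to 0.98.

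Of 7 genes of arginine and ornithine use, 2 were higher and none lower (28.6% against the 11% of all features, median -0.081). Gamt, the enzyme of the last step of creatine synthesis, was 10.48, 10.45, 10.86 and 10.86 in WT and 11.35, 11.39, 11.42 and 11.76 in TgC6hp55 livers and rose by 0.82 (standard error 0.14, adjusted p = 0.00248, and 0.0633 with median scaling, in a range of 0.000256 to 0.0633). Ddah1, which breaks down methylated arginines, rose by 0.59 (adjusted p = 0.018, 0.28 with median scaling and 0.0514 without WT replicate 2, at an unchanged 0.59, in a range of 0.0043 to 0.28). Odc1, which turns ornithine into putrescine, was not called (adjusted p = 0.712).

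Among 11 carriers of amino acids, citrate, bicarbonate and ammonia, 2 were higher and 1 lower, each close to the threshold. That is 27.3% against the 11% of all features, with a median of -0.05. Aqp8, a channel of hepatocyte membranes and mitochondria that passes water and ammonia, had a log2 fold change of 0.84 (adjusted p = 0.0256), Slc7a8, an exchanger of neutral amino acids, one of 0.45 (adjusted p = 0.0372, and 1.02 with an offset of 1), and Slc38a4, an importer of neutral amino acids in hepatocytes, one of -0.53 (adjusted p = 0.0431). The calls were lost in 11, 12 and 14 of 20 alternatives, respectively. Slc7a8 was detected on 1 WT and all 4 TgC6hp55 arrays, so it passed the filter through the TgC6hp55 livers alone and the size of its change is not settled. Of 21 transcription factors and signals known to act on urea cycle or zonated genes, none was called. At a limma unadjusted p under 0.05 stood 4 of the 21, against 24.4% of all features, so this count is no more than the array as a whole gives. The smallest p-values belonged to Ppargc1a, a coactivator of the fasting response (0.34, limma adjusted p = 0.106, and 0.44 with adjusted p = 0.015 without TgC6hp55 replicate 3, in a range of 0.015 to 0.522), and Atf4, a factor of the amino acid response (-0.25, limma adjusted p = 0.125).

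Some markers of other liver cells were called, against the 11% of all features. Of 5 tested Kupffer cell and macrophage genes 2 were higher (Adgre1, Marco), with a summed signal of 187 to 885 in WT and 706 to 1100 in TgC6hp55 livers, which overlap. Of 7 genes of sinusoidal endothelium 2 were higher (Fcgr2b, Pecam1), with sums of 1730 to 2630 and 2710 to 2940. None of 6 stellate cell and fibroblast genes was called (sums of 1420 to 2140 and 1890 to 2570), nor either of the 2 cholangiocyte genes tested (21.5 to 40.7 and 22.8 to 28.8). The T, B and NK cell genes had sums of 22.9 to 33 and 38.7 to 54.4 with none called, and of 3 red blood cell genes Alas2 was lower. Cd5l, Cftr, Krt19, Ms4a1 and Ptprc were detected on no array. The part of these cells in the values given here was not tested.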

How the data were processed

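The 8 arrays were processed by the authors in GenomeStudio 2011.1. They deposited intensities before normalization between arrays, rounded and down to -16, so that a background had been taken off, a step the methods do not state. They also deposited a detection p-value per probe and array, and intensities after cubic spline normalization. Columns were matched to samples by group and number in the sample titles, and both tables ranked the probes alike on each array (rank correlation 0.998 to 0.999).

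Here the intensities before normalization were passed through neqc of limma 3.58.1 in R 4.3.3, that is normexp correction based on the detection p-values, an offset of 16, quantile normalization and log2. Probes with a detection p under 0.05 on at least 4 of 8 arrays were kept (11100 of 25697), the probe with the highest mean stood for its gene, and lmFit and eBayes were run on 8540 features, 7882 genes and 658 probes with no gene symbol. A second probe of a urea cycle or glutamine gene was read from a fit of all probes kept, or from a fit with no filter where it did not pass. Other probes of genes in the related lists were read from the fit with no filter. Marker sums are on the linear scale after the offset was taken off. Ratios to Glul were compared by an exact two-sided permutation test. The test was checked on simulated data.

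Other settings tried were median scaling, the authors' cubic spline values, no normexp step, no filter, a stricter detection p (under 0.01), robust estimation with a variance trend, every probe kept, a block for the replicate number, SAM at the authors' thresholds (fold over 1.7, FDR under 1%) rebuilt with symmetric thresholds, the methods' unpaired t-test, each liver left out, and, chosen after seeing the data, an offset of 1 and the absence of TgC6hp55 replicates 3 and 4. The genes, lists and naming rule (all members, and up to 4 called genes of each list or the 2 with the smallest p) were chosen with earlier results of these data known.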

Additional observations from a re-analysis of the deposited data

How the results depend on the processing

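No alternative that kept all 8 livers called a urea cycle or glutamine gene. One gene was called without TgC6hp55 replicate 1 (Slc25a13), without replicate 3 (Cps1) and without replicates 3 and 4 together (Cps1), and the count ran from 0 to 1 when single livers were left out. Replicate 1 for Slc25a13 and replicate 3 for Cps1 were the TgC6hp55 livers within the WT range. The median of the 8 urea cycle genes was -0.18, -0.31 with median scaling (beside -0.059 over all features), and between -0.25 and -0.10 when single livers were left out. Cps1, Ass1, Nags, Slc25a13, Slc25a15 and Glul kept their sign in all 20 alternatives, though single livers left out moved Ass1 to between -0.33 (TgC6hp55 replicate 3) and -0.12 (TgC6hp55 replicate 2), Nags to between -0.42 (TgC6hp55 replicate 1) and -0.18 (WT replicate 1), and Slc25a15 to between -0.23 (WT replicate 3) and -0.079 (WT replicate 2). Signs turned for Otc without TgC6hp55 replicate 2 (range with single livers left out -0.037 to 0.13), for Arg1 with median scaling (-0.046), and for Asl with median scaling and without TgC6hp55 replicates 3 and 4 (both -0.11), without WT replicate 2 (-0.035), without WT replicate 4 (-0.088) and without TgC6hp55 replicate 3 (-0.066; range with single livers left out -0.088 to 0.097). The ratio of Arg1 to Glul turned to 0.015 without TgC6hp55 replicates 3 and 4. With single livers left out the ratios ran from -0.76 to -0.47 for Cps1, -0.78 to -0.47 for Slc25a13, -0.68 to -0.29 for Nags, -0.51 to -0.26 for Ass1, -0.44 to -0.28 for Slc25a15, -0.37 to -0.024 for Asl, -0.21 to -0.018 for Otc and -0.18 to -0.0073 for Arg1. Their permutation test is too small for its lack of calls to say anything about stability. The cause of these shifts was not tested.

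Of the 92 genes in the related lists 16 were called, 8 with median scaling and 11 to 18 when single livers were left out. Among the carriers Aqp8 was lost without any of WT replicates 1 and 2 or TgC6hp55 replicates 1, 3 and 4 (0.68 to 0.86), Slc7a8 without any liver but WT replicate 3 (0.39 to 0.47), and Slc38a4 without any liver but TgC6hp55 replicate 2 (-0.58 to -0.41). Over the whole array 938 features were called, 291 with median scaling, 590 with the methods' unpaired t-test, 359 with SAM, 612 without WT replicate 2 and 539 without TgC6hp55 replicates 3 and 4.

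The labels give no reason to pair livers by replicate number. The deviations of same-numbered WT and TgC6hp55 livers from their group means correlated at 0.16, 0.12, 0.011 and 0.11, so that not every pair was over 0.1. TgC6hp55 replicates 1, 2 and 4 correlated best with the WT liver of their number, and replicate 3 with WT replicate 4. With the replicate number as a block, 0 urea cycle and glutamine genes, 15 genes of the related lists and 912 features were called, and the calls of Igf1 (adjusted p = 0.0575) and Slc38a4 (adjusted p = 0.0533) were lost.

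With 4 livers per group the standard errors of the 9 genes were 0.091 to 0.16. The intervals of Cps1 (-0.74 to -0.096) and Slc25a13 (-0.76 to -0.10) lay below 0, though neither gene was called after adjustment. For the other genes the interval of the main probe included 0, and a change of any size within it was not excluded. The dim probes of Slc25a13, Glul and Nags lie near the offset, which narrows their fold changes: with an offset of 1 Slc25a13 had -0.69 and Glul 0.25. The Otc probe is less dim than these but far below those of Cps1, Ass1 and Arg1, and with an offset of 1 it had 0.067.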
